A study of Homo sapiens with 6 samples.

Results

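The genes described were the EGFR-family ligands AREG, EREG, HBEGF, TGFA, BTC, EPGN and EGF, chosen by symbol in an RNA-sequencing table of H1975 cells. All 7 had a row among the 27216 rows of the table, and 5 of them were among the 12656 rows whose value averaged at least 1. H1975 is an established human non-small cell lung cancer (NSCLC) line with mutant EGFR, labelled WT for genotype. The labels name DMEM with serum as its medium, whereas the study's methods name a different medium with serum. There were 3 parental samples, taken at 0 h, and 3 adapted samples, taken after 72 h of Osi (osimertinib), an EGFR tyrosine kinase inhibitor, at 1000 nM. The study's list of compounds gives a lower concentration of Osi in nM. DMSO is in the names of the parental columns, and the sources used here do not say whether or for how long these cells were kept in it, so 72 h of drug and any difference in time in culture cannot be told apart. Apoptotic cells were washed away before RNA extraction, so the adapted samples hold the cells that remained. The labels describe digestion of the RNA with RNase R, which degrades linear RNA, whereas the study's methods name total RNA without that step, and its part in the values was not tested. Nothing in the labels says that the replicates came from separate cultures, so the p-values measure only the spread between these samples.

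The ligands are made as membrane-anchored precursors, and metalloproteases of the ADAM family cut them to release a soluble EGF-like domain. ADAM17 releases most of them with the help of the iRhom proteins that carry it to the cell surface. The released domain binds EGFR in the same cell or its neighbours, receptors pair, and the RAS-MAPK pathway is switched on. AREG, TGFA, EPGN and EGF bind EGFR, while HBEGF, BTC and EREG bind both EGFR and ERBB4. EGF, TGFA, HBEGF and BTC bind EGFR with high affinity, and AREG, EREG and EPGN with low affinity. AREG, EREG, TGFA and HBEGF are known as transcriptional targets of the pathway that they activate, and AREG and EREG are abundant in many EGFR-mutant lung cancers.

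The ligand genes changed in both directions in adapted cells. AREG, EREG and TGFA were lower, each past the threshold, and BTC was lower by a small margin. HBEGF was higher, but its mean reached 1 only through the adapted samples, so its call is no more than a description. HBEGF was almost silent in parental cells and reached the level of EREG in adapted cells. EGF was low throughout and lower in adapted cells, and EPGN was close to 0 in both groups.

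Levels are given as log2(FPKM + 1), with FPKM the number of fragments of a gene relative to its transcript length and to all mapped fragments of the sample, so that levels of different genes can be set side by side. The table does not name its unit, which was taken from the values, and comparisons and sums across genes rest on the reading as FPKM. Fold changes are adapted minus parental on this scale, and the added 1 makes those of low genes too small. The adjusted p-values come from limma with Benjamini-Hochberg adjustment over the 12656 rows and a threshold of 0.05. In bulk RNA, fewer cells that express a gene and less RNA per cell cannot be told apart. The depth is unknown, and sums of FPKM per sample ranged from 375342 to 387753. Across rows, and as a description, parental samples had correlations of at least 0.997 among themselves. Adapted replicate 1 correlated with the other adapted samples at 0.991 and was closer to the parental samples (0.973) than they were (0.963 to 0.964). The fold changes of the 5 tested ligands are also given without it. The 5 epithelial markers were expressed in all samples (summed FPKM 2774 to 2810 in parental and 3002 to 3204 in adapted samples), and the fibroblast markers summed to 0.0389 to 0.0598 FPKM in parental and 0.455 to 0.750 FPKM in adapted samples. Of the 4 leukocyte markers, CD3E was listed at 0 in every sample and PTPRC did not exceed 0.08, while CD68 was 6.25 ± 0.02 and 4.40 ± 0.50 and CD79A 0.51 ± 0.13 and 0.06 ± 0.06 (SD, n = 3 each). The part of these markers in the ligand results was not tested.

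The promoters of the ligands with the largest changes are shown first, as the 250 bases before the annotated start of the RefSeq gene (GRCh38.p14), 5′ to 3′ on the strand of the gene. The windows are chr4:74364895-74365144 (+) for EREG, chr4:74444886-74445135 (+) for AREG and chr5:140346604-140346853 (-) for HBEGF. Capitals mark the only matches in them to 4 searched motifs.

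EREG: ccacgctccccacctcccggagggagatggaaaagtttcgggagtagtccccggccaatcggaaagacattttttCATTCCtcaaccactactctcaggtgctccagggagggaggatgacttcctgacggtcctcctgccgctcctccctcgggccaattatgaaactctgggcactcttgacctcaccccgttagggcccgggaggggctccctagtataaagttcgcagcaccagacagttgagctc
AREG: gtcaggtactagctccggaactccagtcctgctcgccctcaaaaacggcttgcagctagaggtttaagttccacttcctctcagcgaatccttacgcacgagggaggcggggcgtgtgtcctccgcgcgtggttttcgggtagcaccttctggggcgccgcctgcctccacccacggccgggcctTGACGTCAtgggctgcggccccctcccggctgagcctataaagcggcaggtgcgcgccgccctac
HBEGF: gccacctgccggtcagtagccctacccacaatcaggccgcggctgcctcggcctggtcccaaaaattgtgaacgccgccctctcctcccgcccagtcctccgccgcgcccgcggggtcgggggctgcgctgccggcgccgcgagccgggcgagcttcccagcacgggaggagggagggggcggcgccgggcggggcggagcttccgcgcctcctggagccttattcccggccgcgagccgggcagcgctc

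The motifs were TGANTCA (AP-1), TGACGTCA (CRE, the site of CREB and ATF factors), GGAATG (TEAD) and CCGGAAG (ETS), searched on both strands in windows of 300 bases, 250 before and 50 after the start. AREG carried TGACGTCA 65 bases before its start, a motif present in 1.85% of all 35116 windows. EREG carried CATTCC, the TEAD motif on the other strand, 175 bases before its start (14% of windows). EGF carried an AP-1 motif 17 bases before its start (7.71% of windows), which overlaps a TEAD motif. HBEGF, TGFA, BTC and EPGN held none of the 4, and no member held the ETS motif, which is in 10.3% of windows. A match describes letters and is no evidence of binding, and the absence of a match says only that these letters are not in the window.

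AREG, the low-affinity ligand amphiregulin, was among the most abundant ligands of parental cells. Its log2(FPKM + 1) was 6.56, 6.57 and 6.57 in parental replicates 1 to 3 and 4.43, 4.14 and 4.28 in adapted replicates 1 to 3. The parental samples were nearly equal, the groups did not overlap, and every adapted sample lay more than 2 units below every parental sample. The means were 93.7 ± 0.413 and 18.5 ± 1.94 FPKM (SD, n = 3 each), 5.06-fold lower in adapted cells. The log2 fold change was -2.28 (SE 0.08, 95% interval -2.47 to -2.10, limma adjusted p = 2.36e-06), the 83rd lowest of the 12656 rows. It was -2.36 without adapted replicate 1.

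EREG, the low-affinity ligand epiregulin, had the largest fall among the ligands tested. Its values were 6.59, 6.54 and 6.41 in parental samples and 4.03, 3.47 and 3.15 in adapted samples. The groups did not overlap, and the adapted samples were spread more widely than the parental ones, with replicate 1 the highest. The means were 90.5 ± 5.77 and 11.1 ± 3.84 FPKM, 8.15-fold lower in adapted cells. The log2 fold change was -2.96 (SE 0.20, 95% interval -3.44 to -2.49, limma adjusted p = 3.26e-05), the 42nd lowest of all rows, and -3.20 without adapted replicate 1.

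HBEGF, heparin-binding EGF-like growth factor, moved the other way. Its values were 0.84, 0.49 and 0.44 in parental samples and 3.40, 3.52 and 3.50 in adapted samples. The adapted samples were close to one another and far above all parental samples, of which replicate 1 was the highest. The means were 0.518 ± 0.239 and 10.1 ± 0.465 FPKM, 19.5-fold higher in adapted cells, a ratio that rests on a low parental level. The log2 fold change was 2.88 (SE 0.12, 95% interval 2.60 to 3.16, limma adjusted p = 4.48e-06), the 38th highest of all rows. It was 2.92 without adapted replicate 1 and 4.11 when 0.1 in place of 1 was added before the log2. Because the parental values are below 1 and the adapted values above 3, HBEGF passed the filter only through the group in which it is high. Its call, adjusted p and rank are therefore no more than a description.

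TGFA, transforming growth factor alpha, a high-affinity ligand of EGFR, fell by less. Its values were 3.61, 3.67 and 3.61 in parental samples and 3.01, 2.51 and 2.46 in adapted samples. The groups did not overlap, and adapted replicate 1 lay nearest to the parental samples. The means were 11.4 ± 0.289 and 5.43 ± 1.43 FPKM, 2.09-fold lower in adapted cells. The log2 fold change was -0.97 (SE 0.14, 95% interval -1.30 to -0.63, limma adjusted p = 0.0011). Without adapted replicate 1 it was -1.14.

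BTC, betacellulin, changed least among the ligands tested. Its values were 2.98, 2.92 and 2.95 in parental samples and 2.44, 2.81 and 2.63 in adapted samples. The groups did not overlap, but adapted replicate 2 (2.81) lay close to the lowest parental sample (2.92). The means were 6.75 ± 0.167 and 5.23 ± 0.798 FPKM, 1.29-fold lower in adapted cells. The log2 fold change was -0.32 (SE 0.10, 95% interval -0.56 to -0.09, limma adjusted p = 0.0282). The call was lost when rows of low values were also tested (limma adjusted p = 0.0805) and when parental replicate 1, 2 or 3 or adapted replicate 3 was left out. The adjusted p from limma was then 0.0886, 0.0690, 0.0795 and 0.0630, in that order. Without adapted replicate 1 the fold change of BTC was -0.23.

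EGF and EPGN averaged under 1 and were tested only in the fit without the filter. EGF, the founding member of the family, had values of 1.16, 1.21 and 1.33 in parental samples and 0.51, 0.68 and 0.65 in adapted samples. All adapted samples were lower than all parental samples, with means of 1.36 ± 0.139 and 0.529 ± 0.0944 FPKM, and the log2 fold change was -0.62 (SE 0.07, limma adjusted p = 0.00481 without the filter). EPGN, epigen, had values of 0.15, 0.18 and 0.09 in parental samples and 0.09, 0.07 and 0.32 in adapted samples. Its groups overlapped, 1 adapted sample was above the rest, and the fit without the filter put its log2 fold change at 0.02 (limma adjusted p = 0.945).

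**Figure D1:**
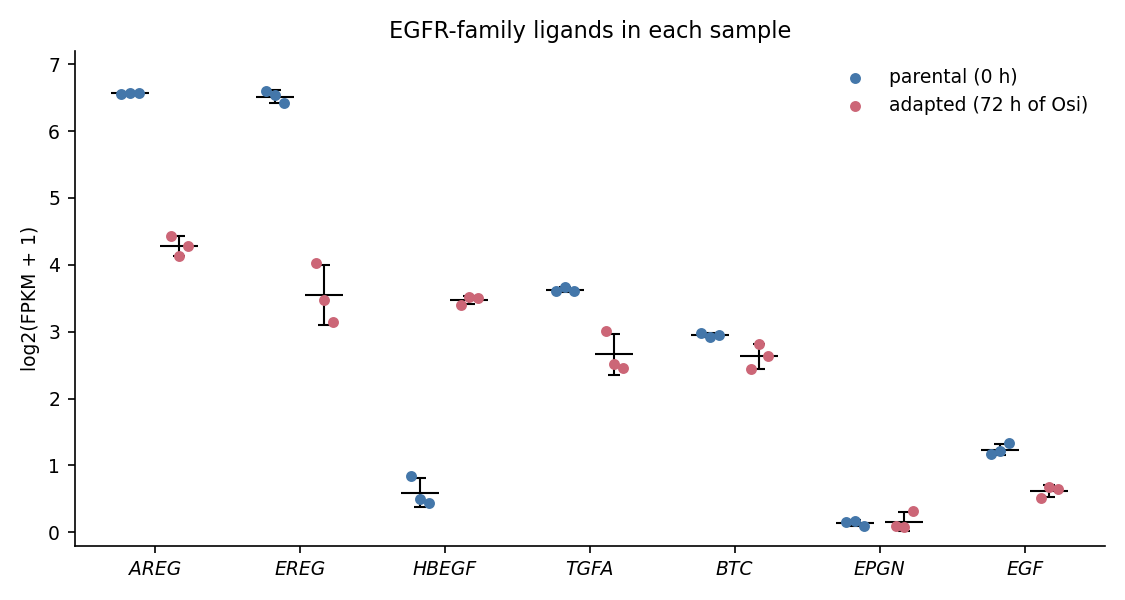
Level of each ligand in each sample as log2(FPKM + 1) on the y axis, with parental samples in blue and adapted samples in red; points are samples in the order of their replicate numbers, horizontal lines are means and bars are SD (n = 3 each). AREG and EREG fall from 6.57 and 6.51 to 4.28 and 3.55, HBEGF rises from 0.59 to 3.47, and the groups overlap only for EPGN.

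Among the 5 ligands tested, 1 was called higher and 4 lower, with a median log2 fold change of -0.97, while the median of all tested rows was 0.03. The ligand called higher, HBEGF, was among the tested rows only through the adapted samples, so the tally is a description. Calls were common in this comparison, with 56.9% of the tested rows called, 30.7% higher and 26.2% lower, so that a call alone does not set a ligand apart. Groups that did not overlap were more common still, at 66.3% of the tested rows, and were seen in the 5 tested ligands and, outside the tested rows, in EGF. With 3 samples against 3 the exact two-sided permutation test cannot give a p below 0.1, and it gave 1.0 for EPGN and 0.1 for each of the others.

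The order of the ligands by level differed between the groups. In parental cells AREG (mean log2 level 6.57) and EREG (6.51) came first with overlapping ranges, followed by TGFA (3.63), BTC (2.95), EGF (1.23), HBEGF (0.59) and EPGN (0.14), with no overlap between any later neighbours. In adapted cells AREG (4.28) stood alone at the top. EREG (3.55) and HBEGF (3.47) followed with overlapping ranges, then TGFA (2.66) and BTC (2.63) with overlapping ranges, then EGF (0.61) and EPGN (0.16). HBEGF thus moved from the sixth to the third place, past TGFA, BTC and EGF.

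Differences between ligands within a sample do not depend on how samples are scaled on the log2 scale, apart from the added 1, and 10 pairs of the 5 tested ligands were compared. AREG minus EREG was -0.03, 0.03 and 0.16 in parental samples and 0.40, 0.67 and 1.13 in adapted samples. Both were level in parental cells, and AREG was the higher of the pair in every adapted sample. EREG minus HBEGF went from 5.75, 6.04 and 5.98 to 0.63, -0.05 and -0.35, so that HBEGF was above EREG in adapted replicates 2 and 3 and below it in replicate 1. HBEGF minus TGFA went from -2.76, -3.17 and -3.17 to 0.39, 1.01 and 1.04, and TGFA minus BTC from 0.62, 0.74 and 0.66 to 0.57, -0.30 and -0.17. HBEGF was below TGFA in every parental sample and above it in every adapted sample. In all 10 pairs the 2 groups did not overlap, with an exact permutation p of 0.1, also after adjustment over the pairs, the smallest that 3 against 3 can give. The pairs reuse the same 5 ligands, whose groups did not overlap singly either. No share over other pairs of genes was taken, so this count does not set the ligands apart.

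The summed expression of the 7 ligands was lower in adapted cells. It was 209.0, 205.7 and 198.1 FPKM in parental samples and 57.4, 48.6 and 47.1 FPKM in adapted samples (204 ± 5.56 and 51.0 ± 5.57, SD, n = 3 each), 4.0-fold lower (exact permutation p = 0.1). AREG and EREG together made up 90.2 ± 0.184% of the sum in parental and 57.7 ± 4.06% in adapted samples. The share of EREG went from 44.3 ± 1.63% to 21.4 ± 5.04% and that of AREG from 45.9 ± 1.45% to 36.3 ± 2.51%. HBEGF held 0.379, 0.198 and 0.178% of the sum in parental samples and 16.7, 21.5 and 21.9% in adapted samples. TGFA and BTC, although their own levels were lower, each held a larger share of the smaller sum, 10.5 ± 1.56% and 10.4 ± 2.42% against 5.56 ± 0.187% and 3.30 ± 0.105%. These are shares of RNA and not of ligand protein.

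The classes of ligands differed in how their sums moved. The low-affinity ligands AREG, EREG and EPGN summed to 188.9, 185.7 and 178.3 FPKM in parental samples and 35.9, 26.8 and 26.6 FPKM in adapted samples, 6.20-fold lower. EPGN added at most 0.129 FPKM in parental and 0.249 FPKM in adapted samples, so this sum restates the falls of AREG and EREG. The high-affinity ligands EGF, TGFA, HBEGF and BTC summed to 20.1, 20.0 and 19.8 FPKM in parental samples and 21.5, 21.8 and 20.6 FPKM in adapted samples, 1.07-fold higher. The high-affinity sum thus moved little (20.0 ± 0.150 and 21.3 ± 0.630 FPKM) while its makeup differed, with HBEGF higher and EGF, TGFA and BTC lower. By receptor, the ligands of EGFR alone went from 107 ± 0.642 to 24.6 ± 3.13 FPKM and those of EGFR and ERBB4 from 97.8 ± 6.02 to 26.5 ± 2.99 FPKM. In none of these 4 classes did the groups overlap (exact permutation p = 0.1 each). The classes by affinity and by receptor regroup the same ligands, of which only EPGN had groups that overlapped singly. Groups that did not overlap were also seen in 66.3% of the tested rows, so this count does not set the classes apart.

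Of the 4 ERBB receptors, 3 were tested, 2 were higher and none was lower, beside 30.7% higher and 26.2% lower over all tested rows. EGFR, the drug's target, was listed at 9.08, 9.09 and 9.02 in parental samples and 9.05, 9.08 and 9.06 in adapted samples. Its log2 fold change was 0.00 (SE 0.07, 95% interval -0.15 to 0.16, limma adjusted p = 0.976). This interval, too, measures only the spread between these samples. ERBB2, the receptor without a known ligand, rose from 5.06 ± 0.02 to 6.0 ± 0.24 (SD, n = 3 each), by 0.93 (limma adjusted p = 4.58e-04). ERBB3, which binds neuregulins and has little kinase activity of its own, rose by 0.34 (limma adjusted p = 0.0425), a call lost in 6 of 18 alternatives (adjusted p up to 0.139). ERBB4, the other receptor for HBEGF, BTC and EREG, was under the filter at 0.02 ± 0.01 in parental and 0.17 ± 0.02 in adapted samples.

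Of the neuregulins, the ligands of ERBB3 and ERBB4, only NRG1 passed the filter. Its values were 2.47, 2.70 and 2.59 in parental samples and 3.57, 2.87 and 2.94 in adapted samples, with replicate 1 the highest. NRG1 rose by 0.54 (limma adjusted p = 0.0376), a call lost in 6 of 17 alternatives (adjusted p up to 0.142). NRG2, NRG3 and NRG4 were near 0, with 0.13 as the highest value in any sample.

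Among 14 genes of ligand release and transport, 10 were tested, 3 were higher and 2 were lower, with a median of 0.07. Calls among them were about as common as over all tested rows (56.9%). RHBDF2, which encodes iRhom2, a partner of ADAM17, had values of 4.89, 4.87 and 4.82 in parental samples and 3.66, 3.41 and 3.78 in adapted samples. It fell by 1.24 (adjusted p = 6.60e-05, limma), and every adapted sample was below every parental sample. RHBDF1, which encodes the related iRhom1, rose by 0.25 (adjusted p = 0.0134, limma), a call lost in 2 of 18 alternatives (adjusted p up to 0.0630). The sheddase itself, ADAM17, went from 4.96 ± 0.04 to 4.72 ± 0.12 (limma adjusted p = 0.0267), and this call was lost in 7 of 18 alternatives (adjusted p up to 0.0970).

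CD9, a tetraspanin that associates with the HBEGF precursor at the membrane, rose from 7.33 ± 0.04 to 8.17 ± 0.36 (limma adjusted p = 0.00395) and kept its call in all 18 alternatives. ADAM9 rose by 0.38 (limma adjusted p = 0.0224), a call lost in 6 of 18 alternatives (adjusted p up to 0.0873). ADAM12, a metalloprotease known to cut HBEGF, was under the filter, with values of 0.20, 0.20 and 0.13 in parental and 1.45, 1.41 and 1.35 in adapted samples. In the fit without the filter it was higher by 1.23 (limma adjusted p = 2.94e-04). The related ADAM19 was also under the filter, at 0.04 ± 0.02 and 0.62 ± 0.21. NKD2, which carries the TGFA precursor to the membrane, averaged 1.16 ± 0.08 in parental and 0.65 ± 0.14 in adapted samples. ADAM10, the main sheddase of the EGF and BTC precursors, did not pass the threshold (0.12, limma adjusted p = 0.165), although it did without adapted replicate 1 (adjusted p = 0.0456).

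**Figure D2:**
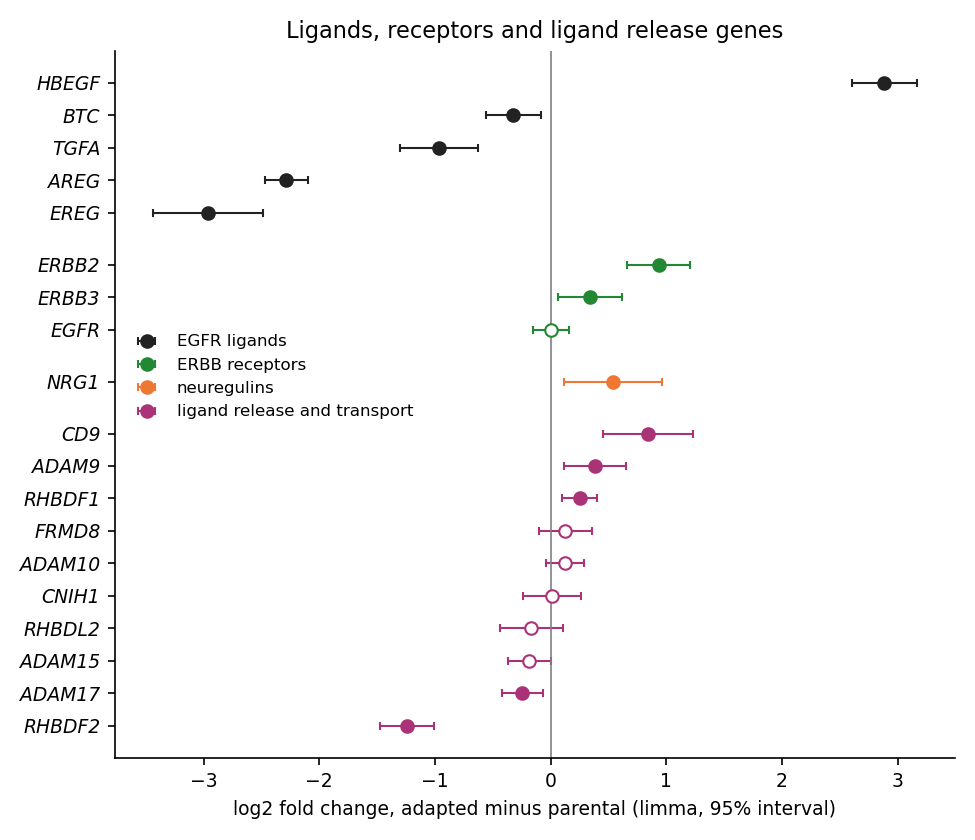
Log2 fold change (adapted minus parental) with its 95% interval from limma for the tested ligands, ERBB receptors, NRG1 and genes of ligand release and transport; filled points passed the threshold and open points did not. HBEGF lies at 2.88, AREG and EREG at -2.28 and -2.96, RHBDF2 at -1.24, and EGFR at 0.00.

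Below the receptor, a list of 10 genes transcribed in response to MAPK signaling was described, and all 10 passed the filter. Of these, 6 were lower, 1 was higher and 3 did not pass the threshold, with a median log2 fold change of -1.41, beside 26.2% lower, 30.7% higher and a median of 0.03 over all tested rows. DUSP6, a phosphatase that inactivates ERK, fell by 3.01 (limma adjusted p = 3.17e-06). ETV4 and ETV5, ETS transcription factors, had fold changes of -2.62 and -2.43 (limma adjusted p = 1.67e-05 and 1.77e-04). EPHA4, an ephrin receptor, was the member called higher, with values of 0.20 to 0.27 in parental and 1.84 to 2.19 in adapted samples (log2 fold change 1.81, limma adjusted p = 2.24e-05). Like HBEGF, it passed the filter only through the group in which it is high, so its call is no more than a description. The same holds for DUSP6 (3.86 in parental and 0.85 in adapted samples) and SPRY4 (2.03 and 0.41), both among the 6 lower. These passed the filter only through the parental samples. SPRY2 (0.12), DUSP4 (-0.42) and CCND1 (-0.31) did not pass the threshold, and DUSP4 and CCND1 did without adapted replicate 1 (lowest adjusted p = 6.19e-04 and 8.62e-04).

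EPGN, EREG, AREG and BTC lie side by side on chromosome 4, within 486.1 kb in the RefSeq annotation of GRCh38.p14, the assembly that the submitters' notes call hg38. EPGN is at chr4:74308470-74316789 (+), EREG at chr4:74365145-74388749 (+), AREG at chr4:74445136-74455005 (+) and BTC at chr4:74744759-74794523 (-). EREG and AREG are 56.4 kb apart, and BTC lies 289.8 kb beyond AREG. EGF is elsewhere on the chromosome (chr4:109912883-110013766, +), HBEGF is at chr5:140332843-140346603 (-) and TGFA at chr2:70447284-70553826 (-). The neighbours EREG and AREG had the largest falls among the ligands, while BTC, which lies beyond AREG, changed by -0.32. EPGN, at the other end of the cluster, was near 0 in parental samples (mean 0.14), so it could not show a fall of that size.

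Of the 5 protein-coding genes on each side of the cluster, 8 of 10 were tested, 1 was higher and 4 were lower, with a median log2 fold change of -0.40. Their share of calls was near the 56.9% of all tested rows. CXCL2, a neutrophil-attracting chemokine, went from 7.33 ± 0.02 to 5.28 ± 0.55 (log2 fold change -2.05, limma adjusted p = 3.53e-04), and its relative CXCL3 fell by 1.14 (adjusted p = 1.90e-04, limma). CXCL2 and CXCL3 are close in sequence, and how the counting divided shared reads is not given in the sources used here. CXCL5 fell by 0.44 (limma adjusted p = 0.0140) and MTHFD2L, an enzyme of mitochondrial folate metabolism, by 0.36 (adjusted p = 0.00874, limma). PPBP, a platelet chemokine, had values of 0.07, 0.21 and 0 in parental and 2.12, 2.72 and 2.57 in adapted samples (log2 fold change 2.38, limma adjusted p = 3.20e-05), and it too passed the filter only through the adapted samples. On the BTC side PARM1 had values of 4.09, 4.08 and 4.08 in parental samples and 4.42, 2.05 and 2.11 in adapted samples. Adapted replicate 1 was above the parental samples and the other 2 far below them, and PARM1 was not called (limma adjusted p = 0.109).

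For each tested ligand, the genes whose 6 values, taken relative to their own parental mean, differed least from those of the ligand were ranked by the root mean square difference on the log2 scale, among 11707 named genes in 6 samples. The genes most like AREG were SNAI1 (0.047), STRA6 (0.0656) and ERRFI1 (0.0868). ERRFI1, a cytoplasmic inhibitor of EGFR, went from 7.38 ± 0.02 to 5.22 ± 0.14, close to the course of AREG. For EREG they were NEK2 (0.117), LBP (0.159) and DUSP6 (0.162), and for HBEGF SPARC (0.150), NEXN (0.193) and RHOB (0.195). SPARC, a secreted matrix protein, went from 1.19 ± 0.05 to 4.12 ± 0.25, and RHOB, a small GTPase, from 2.31 ± 0.04 to 5.34 ± 0.09. For TGFA the nearest were MCM4 (0.023), ADCY3 (0.025) and MPHOSPH9 (0.0341), and for BTC CEBPZOS (0.0198), SELENBP1 (0.0326) and MBD4 (0.0355). Small differences are easier to reach for ligands that changed little, and with 6 samples in 2 groups the measure mainly ranks genes by the size of the change and the spread of the adapted samples.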

How the data were processed

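RNA of 6 H1975 samples, 3 parental and 3 adapted, was sequenced, and the authors deposited 1 table of log2 values with 1 column per sample. The unit is not named. It was taken as log2(FPKM + 1) because 2 to the power of the value, minus 1, had 6 decimals in 27069 of 27216 rows. That grid bears on the log2 and the added 1 but does not tell FPKM from another unit. In the other 147 rows 1 group was off that grid, and no ligand or listed gene was among them. The authors' processing notes name Bowtie2 2.1.0, STAR, edgeR and hg38, without their roles. The authors used DESeq2, which was not used here because it needs counts. In its place, limma 3.58.1 in R 4.3.3 (lmFit, eBayes with an intensity trend, unpaired) was used on rows with a mean of at least 1, and it was checked on simulated data. Single values and sums were compared with a two-sided exact permutation test (scipy 1.17.1).

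All 7 ligands are named. Of each list, up to 3 genes that rose most and 3 that fell most past the threshold are named, with those that a result turns on, and for each ligand the 3 genes most like it. The ligands, the lists of receptor, neuregulin, release and MAPK genes, and the motifs were chosen with earlier results of these data known. Promoters and loci came from RefSeq (GRCh38.p14), and all 7 ligands matched. Alternatives were another pseudocount, other filters and thresholds, 4 scalings, 2 variance models, a replicate block, leaving out each sample, and leaving out groups of rows. For listed genes other than the ligands, the counts of alternatives leave out the threshold of 0.01. At that threshold ERBB3, NRG1, ADAM17, ADAM9, RHBDF1 and KRT8 would not be called.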

Additional observations from a re-analysis of the deposited data

How the results depend on the processing

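AREG, EREG and TGFA kept their direction and call in all 19 alternatives (-2.36 to -2.21, -3.20 to -2.76 and -1.14 to -0.86), and HBEGF did in the 18 that tested it (2.81 to 4.11). With a mean of at least 3, HBEGF and BTC were not tested, so the count of ligands called higher was 0 in place of 1, and 4532 of 7693 rows were called in place of 7202 of 12656. BTC lost its call without a filter (-0.32, adjusted p = 0.0805), with an equal sum per sample without mitochondrially encoded genes (-0.28, adjusted p = 0.0542) and at a threshold of 0.01 (-0.32), all by limma. Leaving out 1 sample at a time moved BTC between -0.41 and -0.23 and its limma adjusted p reached 0.0886. The count of rows called then ranged from 5763 to 8370, the highest without adapted replicate 1. Samples with the same replicate number did not deviate together (r of -0.05, -0.03 and -0.02 across rows), and with the replicate number as a block 6761 rows were called and the calls of the 5 ligands did not change. Calls split 54.0% higher, and 59.1% with an equal sum without mitochondrially encoded genes. The depth is unknown, so no counting error is given, and values near 0, such as those of EPGN and of HBEGF in parental cells, are the least certain.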

Other observations

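Among markers of cell types that a cell line should lack, some values differed between the groups. CD68, used as a leukocyte marker and also known as a lysosomal protein of other cells, was 6.25 ± 0.02 in parental and 4.40 ± 0.50 in adapted samples (limma adjusted p = 3.63e-04), and LUM, a fibroblast marker under the filter, was 0.05 ± 0.01 and 0.61 ± 0.11 (limma adjusted p = 0.00345 without the filter). Of the endothelial markers, PECAM1 was 1.22 ± 0.21 and 0.09 ± 0.02, and CDH5 was 0.21 ± 0.05 and 1.71 ± 0.47. The sum of the 3 endothelial markers ranged from 1.13 to 1.86 FPKM in parental and from 1.42 to 3.47 FPKM in adapted samples. Their part in the ligand results was not tested.

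Among the epithelial markers KRT7 rose by 1.07 (limma adjusted p = 2.19e-04) and KRT18 fell by 0.57 (adjusted p = 0.00427, limma). KRT8 was lower by a small margin (-0.28, limma adjusted p = 0.0477), a call lost in 9 of 18 alternatives (adjusted p up to 0.171), while EPCAM and CDH1 did not pass the threshold. CDH1 did without adapted replicate 1, where it was higher (limma adjusted p = 0.00648), and its direction turned in 3 of 18 alternatives. ODAPH, a neighbour of the ligand cluster under the filter, had values of 0.20, 0.10 and 0.05 in parental and 0.72, 1.45 and 1.5 in adapted samples.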
